A study of Rattus norvegicus with 25 samples.

Results

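Cadherins and protocadherins are the adhesion proteins described here in the basolateral amygdala (BLA) and the dentate gyrus (DG) of rats killed 9 days after an acute, severe stress. Members were the gene identifiers whose name begins with Cdh or Pcdh, then any letters and a number, and whose mean level in the control libraries of the region was at least 0.5 TPM (a gene's part of all transcripts in a library, corrected for gene length and expressed on a common scale). Of 26312 identifiers in each region's table, 81 fitted the name and 73 reached the level. The same 73 were found in the BLA and in the DG: 41 clustered protocadherins, 12 non-clustered protocadherins and 20 cadherins. None of the 73 passed an adjusted p of 0.05 between any pair of groups, which does not show that they were equal, and what follows describes their levels, their spread between animals and the members with the smallest unadjusted p-values.

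All cadherins carry repeated extracellular domains that bind calcium and hold cells together, mostly by binding the same protein on the next cell. Classical cadherins (type I and type II) anchor through catenins to the actin cytoskeleton and are known for sorting neurons and stabilizing synapses. Non-clustered protocadherins of the delta group steer axon outgrowth and synapse formation. Clustered protocadherins lie in 3 neighbouring gene arrays, alpha, beta and gamma, in which each neuron uses its own mixture of promoters, and the resulting surface code lets a neuron tell its own branches from those of others.

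Animals were adult male wild-type Sprague-Dawley rats. Stress-exposed animals were immobilized for 3 h with predator scent, and the stress-low and stress-high groups were those with low or high composite scores of anxiety-like behavior afterwards. Control animals stayed in the home cage with a cage change at that time of day. Their library names mark a low or a high score, and both kinds were pooled as controls. Stress-exposed animals were housed in another room for some nights after the stress. Poly-A RNA of punches from the left hemisphere gave 13 BLA libraries (7 control, 3 stress-low, 3 stress-high) and 12 DG libraries (6, 3 and 3), each from 1 animal. Because groups were defined by behavior, a difference between them is not a difference between treatments assigned at random. Of the animals, 11 gave a library from each region, so both regions are not independent samples of the stress.

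Total expected counts, the estimated reads per library, ran from 12709493 to 22801247 in the BLA and from 11656439 to 19477932 in the DG. The control library that stood apart in a principal component analysis was left out in each region, a step that the study's methods also describe. By its position on the first component this was animal 2 in the BLA (46.4, the others between -17.3 and 12.5) and animal 35 in the DG (56.0, the others between -13.7 and 2.28). In the left-out DG library 54 of the 73 members (74.0%) lay below every other DG control and none above, with a median ratio to the mean of the other controls of 0.650, where 51.3% of all identifiers at 0.5 TPM or more lay below and 10.1% above, with a median ratio of 0.837. In the left-out BLA library 17 members (23.3%) lay above and 4 (5.48%) below the other controls, with a median ratio of 1.09, against 45.7%, 6.65% and 1.14 over all identifiers. The library of BLA animal 35 was labelled control by its library name and stress-exposed by its treatment field, and was kept as a control. Every stress-high animal had a number of 20 or below and every stress-low animal a number above 20, but the number is not stated to mark a cohort. This left 6 control, 3 stress-low and 3 stress-high BLA libraries, and 5, 3 and 3 DG libraries.

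The labelled tissue was checked against markers. Of 6 granule neuron markers, 3 averaged higher in the DG: the transcription factor Prox1 (75.6 TPM, 2.52 in the BLA), C1ql2 (344 and 2.78) and Dsp (5.91 and 0.205). The other 3 averaged higher in the BLA, namely C1ql3 (492 TPM, 326 in the DG), Calb1 (134 and 106) and Npnt (1.78 and 1.53). Of 6 choroid plexus markers none averaged 1 TPM in either region, and Otx2 was listed at 0 throughout. All 7 markers of striatum and central amygdala, regions next to the BLA, were detected in the BLA, and their summed TPM ran from 279 to 857 in controls, from 275 to 836 in stress-low and from 383 to 474 in stress-high libraries. They were detected in the DG as well, where Ppp1r1b averaged higher (102 TPM, 65.7 in the BLA) and the others lower. Markers of CA pyramidal neurons, which lie next to the DG, summed to 170 to 233 TPM in DG controls. In stress-low and stress-high DG libraries they summed to 156 to 237 and 151 to 228. In BLA controls they summed to more, 242 to 359 TPM, so the sum is not particular to CA tissue. The part of either list in the differences below was not tested. In bulk RNA, fewer cells of a type and less RNA per cell cannot be told apart.

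Promoter sequences are shown for 5 genes of the beta array, because an 8-base word recurs there. Of these, Pcdhb14 and Pcdhb15 are also named in the BLA comparisons below. Of the 73 members, 52 had a promoter window in RefSeq (build GRCr8, matched by symbol) around the annotated start. The word GTGGCGCT was found, on either strand, in 13 of 15 beta windows, in 0 of 13 gamma windows and in 1 of 28 windows of cadherins and non-clustered protocadherins (Cdh15), and was not found in the 1 alpha window, against 1.11% of all 33469 windows of the same length. It was picked because it recurs in these windows, so its share among them is a description. The windows without it were those of Pcdhb1 and Pcdhb15. The following lines give the 120 bases before the start of 5 beta genes on the plus strand of chromosome 18, in lower case with the word in capitals.

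Pcdhb14 (chr18:29431767-29431886): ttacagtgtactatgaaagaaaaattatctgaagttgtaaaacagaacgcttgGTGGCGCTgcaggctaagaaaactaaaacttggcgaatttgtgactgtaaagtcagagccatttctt
Pcdhb19 (chr18:29478728-29478847): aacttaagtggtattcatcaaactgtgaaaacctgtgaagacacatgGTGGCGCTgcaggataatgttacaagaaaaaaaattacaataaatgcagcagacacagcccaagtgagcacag
Pcdhb21 (chr18:29492099-29492218): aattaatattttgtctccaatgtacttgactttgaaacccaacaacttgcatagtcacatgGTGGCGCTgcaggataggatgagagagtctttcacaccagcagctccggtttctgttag
Pcdhb15 (chr18:29454214-29454333): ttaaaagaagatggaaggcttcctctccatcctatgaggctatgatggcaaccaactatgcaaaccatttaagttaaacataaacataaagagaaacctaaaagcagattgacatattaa
Pcdhb1 (chr18:29187728-29187847): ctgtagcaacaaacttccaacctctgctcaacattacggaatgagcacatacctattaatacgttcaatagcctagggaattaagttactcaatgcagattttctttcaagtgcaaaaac

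In the 13 beta windows the first base of the word lay between positions -207 and -45 counted from the start, always on the strand of the gene. Pcdhb1 averaged 0.0183 TPM in BLA controls and 0.0100 in DG controls, while Pcdhb15, whose window also lacks the word, averaged 2.68 and 2.96 TPM. The mean control TPM of genes with the word was 2.56 (BLA) and 3.91 (DG) for Pcdhb14, 4.50 and 11.6 for Pcdhb19 and 0.887 and 4.32 for Pcdhb21. Some beta names are synonyms of one another between annotations, so a match by symbol may join a window to another gene's values.

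Non-clustered protocadherins of the delta group gave the largest share of the family's summed TPM in controls, 38.9% in the BLA and 40.6% in the DG from 10 members. In the BLA the highest of all members was Pcdh10, a delta protocadherin of forebrain projection neurons, at 118 ± 11.02 TPM (SD, n = 6). Next within the delta group were Pcdh1 at 101 ± 13.5 and PCDH7 at 67.9 ± 7.67. In the DG the order differed: Pcdh1 led at 219 ± 17.1 TPM (n = 5), PCDH8 (known as arcadlin, an activity-regulated protocadherin of synapses) came next at 97.4 ± 12.5, and Pcdh10 stood at 26.03 ± 4.19. Pcdh9 was nearly level in both regions, at 51.7 ± 3.75 and 50.9 ± 3.24 TPM. Pcdh19, whose human counterpart is mutated in an epilepsy of girls, stood at 19.2 ± 3.88 in the BLA and 45.4 ± 7.97 in the DG, and Pcdh20 at 12.7 ± 1.97 and 42.5 ± 4.75. The 2 non-clustered members outside the delta group were low: Pcdh15 at 7.52 ± 0.892 and 6.09 ± 0.387 TPM, and the endothelial Pcdh12 at 0.527 ± 0.129 and 0.574 ± 0.210.

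Among classical type I cadherins, Cdh2 (N-cadherin, the main cadherin of neural tissue) was the third highest member of the BLA at 84.7 ± 5.31 TPM and stood at 81.7 ± 3.34 in the DG, with the smallest spread within groups of all BLA members (a coefficient of variation of 8.16%). Cdh4 (R-cadherin) was at 24.7 ± 3.10 and 5.83 ± 0.937 TPM and Cdh15 (M-cadherin) at 5.62 ± 0.575 and 2.14 ± 0.325. All 13 type II cadherins were members. In the BLA they were led by Cdh9 (52.6 ± 9.62 TPM), which takes part in synapse formation between dentate granule neurons and CA3 neurons, then CDH8 (49.8 ± 6.31), Cdh22 (33.7 ± 4.68), Cdh10 (28.3 ± 4.47) and Cdh11 (21.3 ± 2.54). In the DG CDH8 (54.5 ± 5.53) and Cdh9 (49.3 ± 6.62) came first, a difference within their spread, followed by Cdh11 (33.5 ± 3.26), Cdh10 (15.5 ± 2.56) and Cdh12 (12.6 ± 1.13). Cdh13 (T-cadherin), which is held to the membrane by a lipid anchor and lacks a cytoplasmic tail, was at 49.2 ± 6.90 and 84.3 ± 19.0 TPM. The hair-bundle cadherin Cdh23 was near 1 TPM (1.34 ± 0.486 and 1.46 ± 0.206). The cadherin-related Cdhr2 was at 5.32 ± 0.581 and 11.5 ± 0.468 TPM, and Cdhr1 at 1.23 ± 0.327 and 1.54 ± 0.368.

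The 41 clustered members held 25.1% of the family's TPM in BLA controls and 29.0% in DG controls, spread over 10 alpha, 18 beta and 13 gamma genes. Most were low, with a median member at 3.85 TPM in the BLA and 4.69 in the DG. A pair stood above the rest: Pcdhga12 at 77.96 ± 8.32 and 87.2 ± 6.42 TPM and Pcdhac1, a C-type alpha gene, at 41.6 ± 4.45 and 41.9 ± 0.807. Next in the BLA were Pcdhga7 (12.2 ± 3.00), Pcdhga11 (10.2 ± 1.48) and Pcdhga10 (9.33 ± 1.24), and in the DG Pcdhgb7 (22.5 ± 2.17), Pcdhgb8 (17.3 ± 2.91) and Pcdhga7 (15.7 ± 0.861). The summed level of the alpha genes was alike in both regions (73.2 ± 8.21 TPM in the BLA, 74.2 ± 3.35 in the DG), whereas the beta sum was 55.0 ± 6.86 and 93.7 ± 6.33 and the gamma sum 160 ± 17.9 and 211 ± 11.8.

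Values of single clustered genes are uncertain. Genes of the alpha array and of the gamma array splice to shared last exons: in RefSeq, 12 of 15 gamma genes end at 1 coordinate, and the 10 alpha members are entered as a single gene with synonyms. Expected counts that are not whole come from reads that were divided among genes by estimation. In the BLA 93.7% of the expected counts of clustered members were not whole numbers (by more than 0.005), against 26.6% of those of the other members. In the DG the shares were 36.8% and 0.284%. Most beta genes, which share no last exon, were also affected in the BLA, and the part of the shared exons was not tested. The gene models of Pcdhga12 and Pcdhac1 span 3068 and 5411 bases, against 2561 for Pcdhga11 and 2385 for PCDHA4. Pcdha8, at 5248 bases, averaged only 5.22 TPM in BLA controls. Whether the high values of Pcdhga12 and Pcdhac1 hold reads of shared exons was not tested. A regional difference of a clustered gene and the way its reads were divided in each table cannot be told apart.

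**Figure D1:**
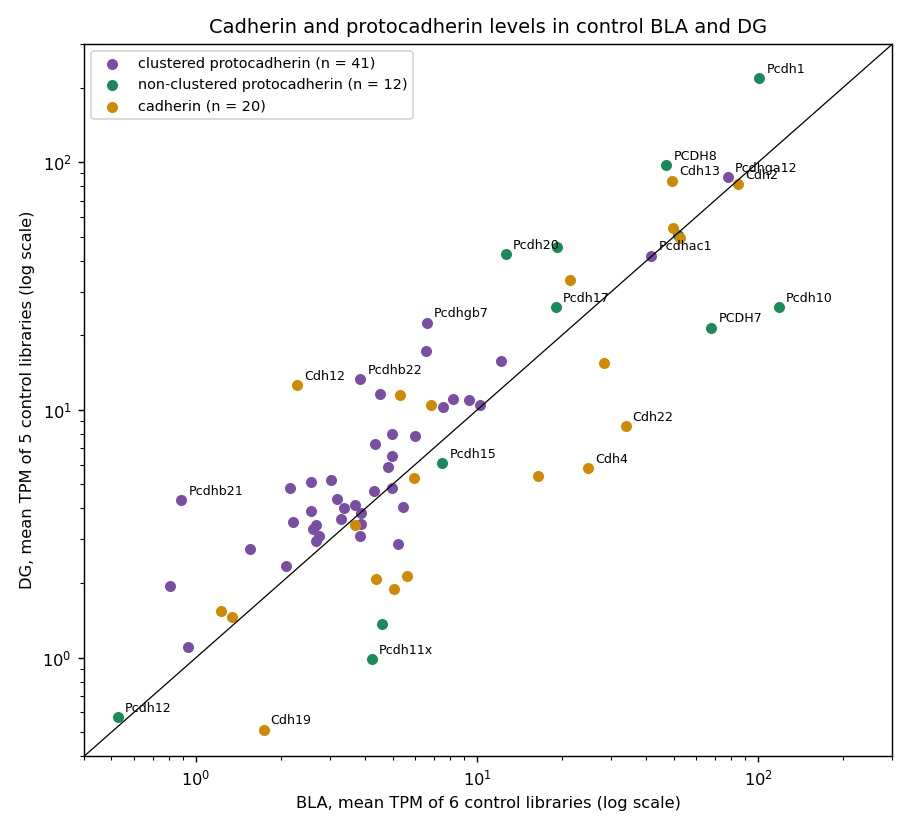
Mean TPM of the 73 members in control libraries of the BLA (horizontal, n = 6) and the DG (vertical, n = 5), both on log axes, colored by class, with the line of equal level. Pcdh10, PCDH7, Cdh22 and Cdh4 lie below the line (higher in the BLA) and Pcdh1, PCDH8, Pcdh20, Cdh12 and Pcdhgb7 above it, while Cdh2 and Pcdhac1 lie on it.

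Levels were set side by side between regions as a description, since each region's table was quantified separately. In 27 of the 73 members the lowest library of one region exceeded the highest of the other, all groups included. In 10 of these (13.7%) the BLA was above, where 10.6% of all 14139 identifiers at 0.5 TPM or more in both regions showed this, and in 17 (23.3%) the DG was above, where the share of all identifiers was 26.9%. Sizes differed more from the background: 11 members (15.1%) were over 2-fold higher in BLA controls against 8.02% of all identifiers, and 14 (19.2%) were over 2-fold higher in DG controls against 9.15%. The type II cadherin Cdh12 moved farthest in rank, from place 62 in the BLA (2.29 ± 0.594 TPM) to place 21 in the DG, a 5.50-fold higher level. Cdh15 went from place 31 to 63 and CDH6 from 35 (5.05 ± 0.940 TPM) to 66 (1.88 ± 0.0358). Both were higher in the BLA, by 2.62-fold and 2.68-fold. Among the members with the largest ratios of this direction, Pcdh10 was 4.53-fold, Pcdh11x 4.30-fold, Cdh4 4.24-fold and Cdh22 3.93-fold higher in the BLA. All 8 clustered members past 2-fold were higher in the DG, among them Pcdhb21 (0.887 and 4.32 TPM), Pcdhb22 (3.83 and 13.3) and Pcdhgb7 (6.61 and 22.5); these and Pcdh11x were singled out after their values were seen.

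The threshold fell in a thin part of the list. Just inside it were Pcdh12 in the BLA, at 0.523 TPM over all 7 controls, and Cdh19 (a cadherin of glia of the Schwann and oligodendrocyte lineages) in the DG, at 0.5 over all 6. Just outside was Cdh3 (P-cadherin), at 0.410 and 0.357 TPM. At a threshold of 1 TPM 69 members would remain in each region. The 8 named genes outside the rule included Cdh1 (E-cadherin of epithelia) and Cdh16. In the BLA Cdh1 was at 0.317 TPM over all 7 controls and at 0.0867 without the left-out library. In the DG it was at 0.0200 TPM without the left-out library. Cdh16 was listed at 0 in every BLA library used.

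Spread between animals of a group was larger for clustered members, with a median coefficient of variation of 22.2% in the BLA and 18.3% in the DG, than for the other 32, with 15.1% and 14.6%. Counts differed as well: the median expected count per library was 103 for clustered and 462 for other members of the BLA, and for the DG it was 119 and 260. Compared at like level, members between 5 and 20 TPM had a median coefficient of 17.96% in the BLA against 13.0% for all genes of that level, and 15.1% against 11.9% in the DG. At 20 TPM or more the values were 12.7% against 9.39% and 11.1% against 7.51%. Between 0.5 and 5 TPM the members varied less, 24.4% against 29.0% and 20.0% against 27.8%. The most variable members were Cdhr1 (42.7%), Pcdhga1 (36.7%) and Pcdhb3 (31.3%) in the BLA, and Pcdhga1 (46.1%), PCDHA6 (37.0%) and Pcdh11x (36.0%) in the DG.

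The first comparison asked what set stress-low apart from stress-high animals. In the BLA, edgeR's quasi-likelihood test called 0 of the 73 members and 0% of all 15230 genes at an adjusted p under 0.05. Unadjusted, 4 members (2 higher and 2 lower in stress-high) had p under 0.05, with 1.98% of all genes below it. DESeq2 and limma on log2(TPM + 1) also called 0 members after adjustment, with 4 and 3 unadjusted. Shares of all genes under an unadjusted 0.05, here and below, are those of the edgeR fit. The DESeq2 and limma counts have no such share beside them. In CPM (counts scaled to library size) the 3 stress-low libraries did not overlap with the 3 stress-high ones in 6 members, where 6.81% of all genes showed this. The 6 were Pcdh17, Cdh7, Pcdhb14, Pcdhb15, Pcdhb22 and Pcdhga7. With 3 against 3 libraries an exact permutation test cannot give a p below 0.1.

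Pcdh17, a delta protocadherin that groups synaptic vesicles in corticobasal circuits, was the only member that the study itself lists for the BLA. The study called its genes by another test (EBSeq, FDR under 0.05), whereas edgeR did not call Pcdh17 after adjustment. Its order of groups is not independent evidence here. Its TPM was 21.3, 23.8 and 19.2 in stress-low and 15.3, 17.1 and 19.8 in stress-high libraries. Controls ran from 15.55 over a median of 18.9 to 22.8 and covered most of both groups, and in TPM the highest stress-high library lay above the lowest stress-low one. In CPM, the scale of the edgeR fit, the stress groups did not overlap (64.2, 67.1 and 59.6 against 50.8, 53.4 and 54.8). Controls in CPM ran from 48.6 to 68.6 and spanned both. The fitted log2 difference, stress-high over stress-low, was -0.26 ± 0.11 (SE), with an unadjusted p of 0.0347 and an adjusted p of 1 by edgeR (Benjamini-Hochberg). The exact permutation test of the TPM values (3 against 3, two-sided) gave p = 0.2. In the DG the same difference was -0.08 ± 0.14, and stress-low (23.3, 32.5 and 27.2 TPM) and stress-high libraries (30.35, 23.03 and 24.7) overlapped widely.

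Cdh7, a type II cadherin, was at 5.83, 5.77 and 4.91 TPM in stress-low and at 4.08, 3.5 and 4.34 in stress-high BLA libraries. The groups did not overlap, while controls ran from 3.43 over 4.36 to 5.27. Its log2 difference was -0.42 ± 0.16 (unadjusted p 0.0213, adjusted p 1 by edgeR).

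A pair of beta protocadherins went the other way. Pcdhb14, whose promoter is printed above, was at 1.98, 2.2 and 2.09 TPM in stress-low and at 3.15, 2.88 and 2.95 in stress-high libraries. Its 6 controls, from 2.02 over a median of 2.46 to 3.38, lay across both groups, which did not overlap with each other. The log2 difference was 0.57 ± 0.18 (unadjusted p 0.00676, adjusted p 1 by edgeR), the smallest unadjusted p of the family in this comparison. Pcdhb15 was at 1.44, 2.14 and 2.12 TPM in stress-low and at 2.52, 2.22 and 4.19 in stress-high libraries. The groups did not overlap but nearly met, and the stress-high library of animal 20 was far above the other two. The log2 difference was 0.66 ± 0.23 (unadjusted p 0.0113, adjusted p 1 by edgeR). These values rest on few reads, 40 to 118 for Pcdhb14 and 29 to 97 for Pcdhb15 over all BLA libraries of the 3 groups.

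Across the 41 clustered members of the BLA, 29 were fitted higher and 12 lower in stress-high than in stress-low animals, with a median log2 difference of 0.11 against -0.00055 over all genes. The summed beta level was 47.2, 58.2 and 47.3 TPM in stress-low and 49.0, 57.8 and 62.0 in stress-high libraries, so the groups overlapped. Gamma and alpha sums overlapped too, as the plot of summed TPM per library shows. Among the 12 non-clustered protocadherins 5 were fitted higher and 7 lower (median -0.02), and among the 13 type II cadherins 6 and 7 (median -0.0030).

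**Figure D2:**
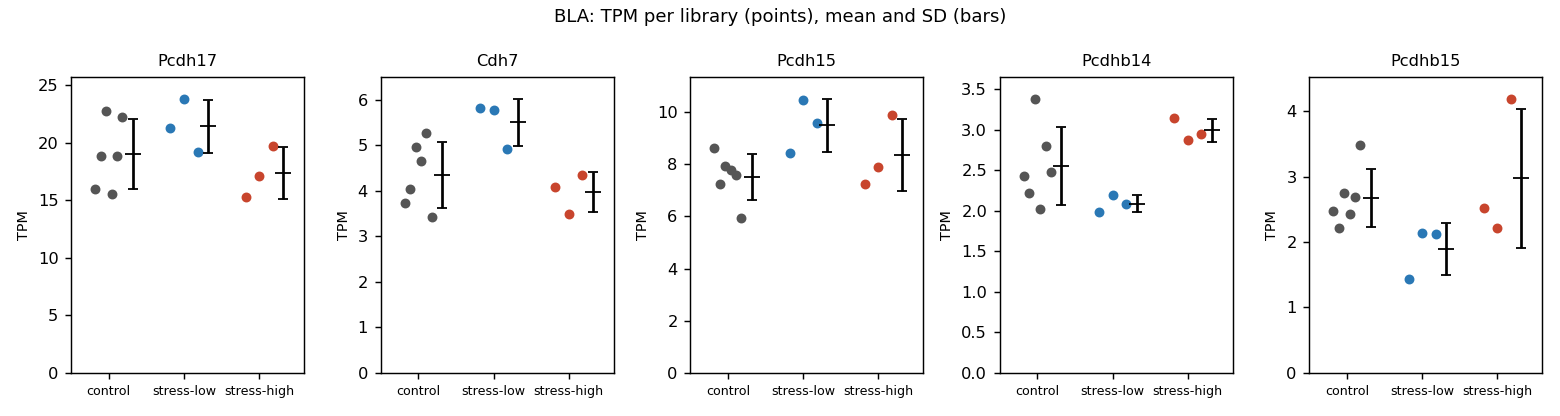
TPM of the 5 members with an unadjusted p under 0.05 in any BLA comparison, with 1 point per library and the group mean and SD beside the points. In TPM, stress-low and stress-high libraries are apart for Cdh7, Pcdhb14 and Pcdhb15 and overlap for Pcdh17 and Pcdh15. The 6 controls overlap at least 1 stress group in each panel.

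In the DG, edgeR called 0 of the 73 members and 0% of 14080 genes after adjustment between stress-low and stress-high. Unadjusted, 6 members had p under 0.05 (1 higher and 5 lower in stress-high), with 3.12% of all genes below it. DESeq2 and limma on log2(TPM + 1) called 0 after adjustment and 5 and 4 unadjusted, again without a share of all genes from those tests. The groups did not overlap in CPM in 8 members, where 9.38% of all genes showed this: the 6 named next, CDH8 and Cdh13.

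Pcdh15, known from the tip links of hair cells and in brain tissue mainly expressed by oligodendrocyte precursors, was at 7.39, 7.24 and 6.17 TPM in stress-low and at 3.44, 5.75 and 6.15 in stress-high DG libraries. Controls (5.86, 5.7, 6.38, 6.61 and 5.89) overlapped with the stress-low range, and the lowest stress-low and highest stress-high values nearly met. The log2 difference was -0.52 ± 0.17 (unadjusted p 0.00752, adjusted p 0.9996 by edgeR). The 6 oligodendrocyte precursor markers summed to 110 to 117 TPM in stress-low and 112 to 118 in stress-high libraries. None of the 6 passed an unadjusted p of 0.05 by edgeR in this comparison. The part of these markers in the DG difference of Pcdh15 was not tested.

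Cdh20, a type II cadherin, was at 13.45, 11.6 and 12.4 TPM in stress-low and at 11.02, 9.27 and 11.4 in stress-high libraries. The log2 difference was -0.24 ± 0.10 (unadjusted p 0.0326, adjusted p 0.9996 by edgeR). Cdh9 was at 55.2, 55.3 and 58.85 TPM against 37.3, 45.9 and 52.9, with controls from 42.1 to 58.2 spanning both groups, and a log2 difference of -0.31 ± 0.13 (unadjusted p 0.0291). Cdh23 was at 1.36, 1.67 and 1.26 TPM against 0.97, 0.98 and 1.24, with a log2 difference of -0.43 ± 0.17 (unadjusted p 0.0227).

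The 2 clustered genes in this set were Pcdhga5 and PCDHA1. Pcdhga5 was at 2.26, 3.02 and 2.96 TPM in stress-low and at 3.84, 3.94 and 3.91 in stress-high libraries, and its 5 controls (4.37, 4.16, 3.33, 3 and 3.21) reached from one group past the other. The log2 difference was 0.52 ± 0.19 (unadjusted p 0.0156, adjusted p 0.9996 by edgeR). PCDHA1 was at 1.51, 1.09 and 1.69 TPM against 0.88, 0.77 and 1.06, from 17 to 33 reads per DG library over the 3 groups, with a log2 difference of -0.65 ± 0.29 (unadjusted p 0.0436).

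Of the 12 non-clustered protocadherins 11 were fitted lower and 1 higher in stress-high DG libraries, with a median of -0.11 on the log2 scale against -0.00017 over all genes. Their summed TPM nevertheless overlapped, from 519 to 567 in stress-low, from 474 to 567 in stress-high and from 496 to 589 in control libraries. The 41 clustered members were fitted 22 higher and 19 lower (median 0.03), and their sum was 352 to 390 TPM in stress-low and 359 to 393 in stress-high libraries.

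**Figure D3:**
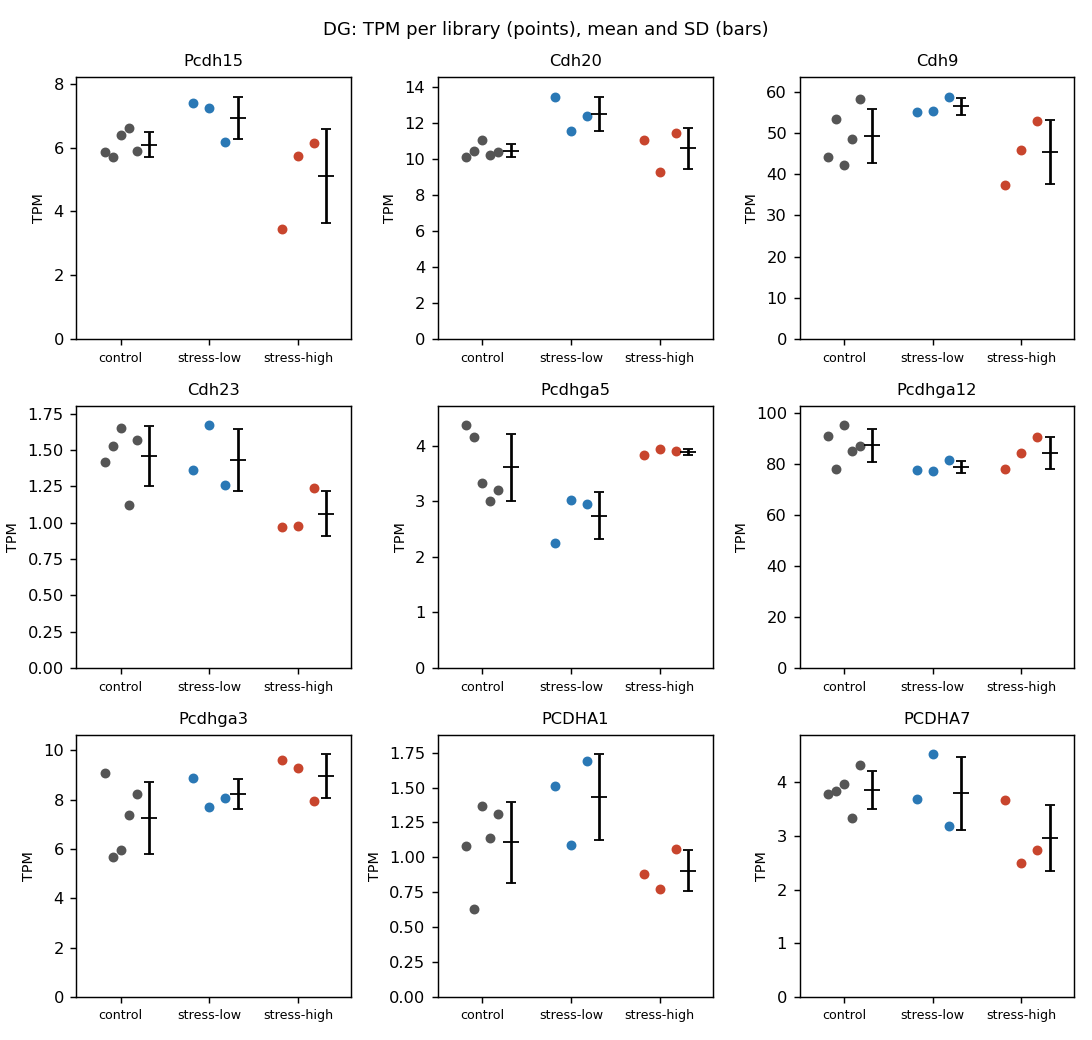
TPM of the 9 members with an unadjusted p under 0.05 in any DG comparison, with 1 point per library and the group mean and SD beside the points. Pcdh15, Cdh20, Cdh9, Cdh23 and PCDHA1 are lower and Pcdhga5 is higher in each stress-high library than in each stress-low library, while controls overlap with at least one stress group in each panel.

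Whether the stress-low to stress-high difference itself differed between regions was tested in 1 fit of both tables. Of the animals, 9 gave libraries to both regions, and the fit held no term for them. The interaction was called for 0 of 73 members and 0% of 15453 genes after adjustment, and unadjusted for 0 members with 2.00% of all genes below 0.05. The smallest unadjusted p of a member was 0.0532, for Pcdhb22. For Pcdhb14 the DG minus BLA difference was -0.35 ± 0.24 and for Pcdh17 0.20 ± 0.19 (SE, log2 scale), so neither was shown to differ between regions.

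Comparing controls with each stress group addressed which members set stress-low or stress-high animals apart from control animals. Both comparisons share the controls and are given side by side. Against BLA stress-low animals 0 members and 0% of genes passed adjustment by edgeR, and 2 members had an unadjusted p under 0.05 (2.75% of all genes). DESeq2 and limma on log2(TPM + 1) gave 0 after adjustment and 2 each unadjusted. Pcdh15 was 5.95 to 8.62 TPM in controls (median 7.68), 8.44, 10.45 and 9.59 in stress-low and 7.25, 7.89 and 9.89 in stress-high libraries. Stress-low over control was 0.32 ± 0.11 (unadjusted p 0.00984, adjusted p 0.9998 by edgeR) and stress-high over control 0.06 ± 0.11. The groups overlapped in TPM by the lowest stress-low library, while in CPM that library (17.6) lay just above the highest control (17.5). The oligodendrocyte precursor markers summed to 135 to 176 TPM in controls and 143 to 194 in stress-low libraries. Their part in the Pcdh15 difference was not tested. Pcdhb15 was 2.22 to 3.49 TPM in controls (median 2.58), above each of the 3 stress-low libraries, with a log2 difference of -0.52 ± 0.20 (unadjusted p 0.0227, adjusted p 0.9998 by edgeR). Stress-high over control was 0.15 ± 0.19.

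Against BLA stress-high animals edgeR called 0 members and 0% of genes, and no member had an unadjusted p under 0.05 (2.57% of all genes). DESeq2 and limma on log2(TPM + 1) also gave 0 members unadjusted. The smallest unadjusted p of a member was 0.0636. Among the most abundant members the log2 differences were -0.03 ± 0.08 for Pcdh10, 0.01 ± 0.09 for Pcdh1, 0.03 ± 0.05 for Cdh2 and 0.03 ± 0.07 for Pcdhga12 (SE).

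In the DG, 0 members and 0% of genes passed adjustment between control and stress-low, and 3 members had an unadjusted p under 0.05 (6.90% of all genes). DESeq2 and limma on log2(TPM + 1) gave 0 after adjustment and 4 and 3 unadjusted. Cdh20 was at 10.1, 10.41, 11.03, 10.2 and 10.39 TPM in controls, and each of the 3 stress-low libraries was above them. The log2 difference was 0.27 ± 0.09 (unadjusted p 0.00867, adjusted p 0.718 by edgeR), and the exact permutation test of TPM gave p = 0.0357, the smallest that 5 against 3 libraries allow two-sided. Stress-high over control was 0.04 ± 0.09. Pcdhga12, the clustered gene with the highest TPM, was at 90.9, 77.9, 94.95, 85.1 and 86.9 TPM in controls and at 77.4, 77.0 and 81.3 in stress-low libraries. By TPM 1 control fell inside the stress-low range, while in CPM the highest stress-low library (148.9) lay just below the lowest control (149.5). The log2 difference was -0.13 ± 0.06 (unadjusted p 0.0319 by edgeR). Pcdhga5 was lower in stress-low by -0.39 ± 0.17 (unadjusted p 0.0390), with overlapping libraries.

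Between DG controls and stress-high animals 0 members and 0% of genes passed adjustment, and 3 members had an unadjusted p under 0.05 (2.19% of all genes). DESeq2 and limma on log2(TPM + 1) gave 0 after adjustment and 2 and 1 unadjusted. Cdh23 was at 1.42, 1.53, 1.65, 1.12 and 1.57 TPM in controls, of which the fourth lay inside the stress-high range, with a log2 difference of -0.44 ± 0.15 (unadjusted p 0.0110, adjusted p 0.99999 by edgeR). Stress-low over control was -0.01 ± 0.15 for this gene. Pcdhga3 was at 9.07, 5.66, 5.94, 7.39 and 8.25 TPM in controls and 9.62, 9.3 and 7.96 in stress-high libraries, with a log2 difference of 0.33 ± 0.14 (unadjusted p 0.0366). PCDHA7 was at 3.78, 3.84, 3.97, 3.34 and 4.32 TPM against 3.66, 2.5 and 2.73, with a log2 difference of -0.36 ± 0.17 (unadjusted p 0.0481). Both overlapped between groups.

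**Figure D4:**
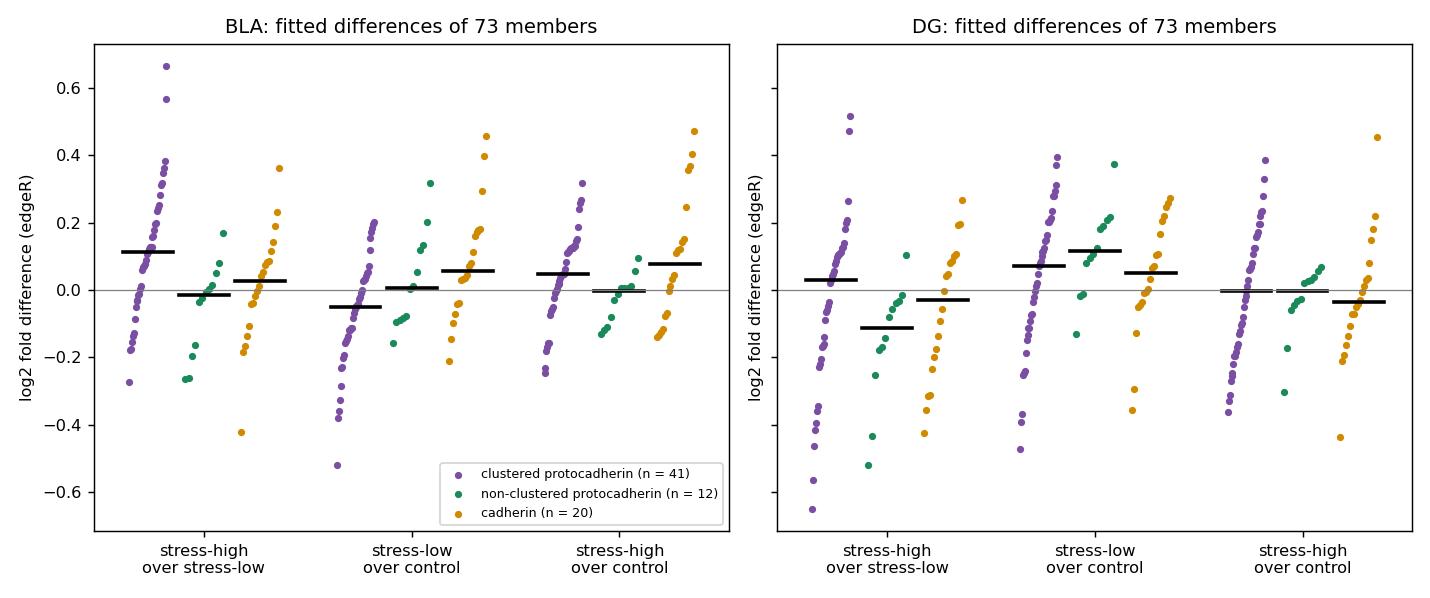
Fitted log2 differences of the 73 members in the 3 comparisons of each region, with 1 point per gene, sorted within 3 classes (clustered and non-clustered protocadherins, cadherins), and the class median as a bar. Points lie between -0.65 (PCDHA1, DG) and 0.66 (Pcdhb15, BLA), and the medians lie between -0.11 and 0.12.

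**Figure D5:**
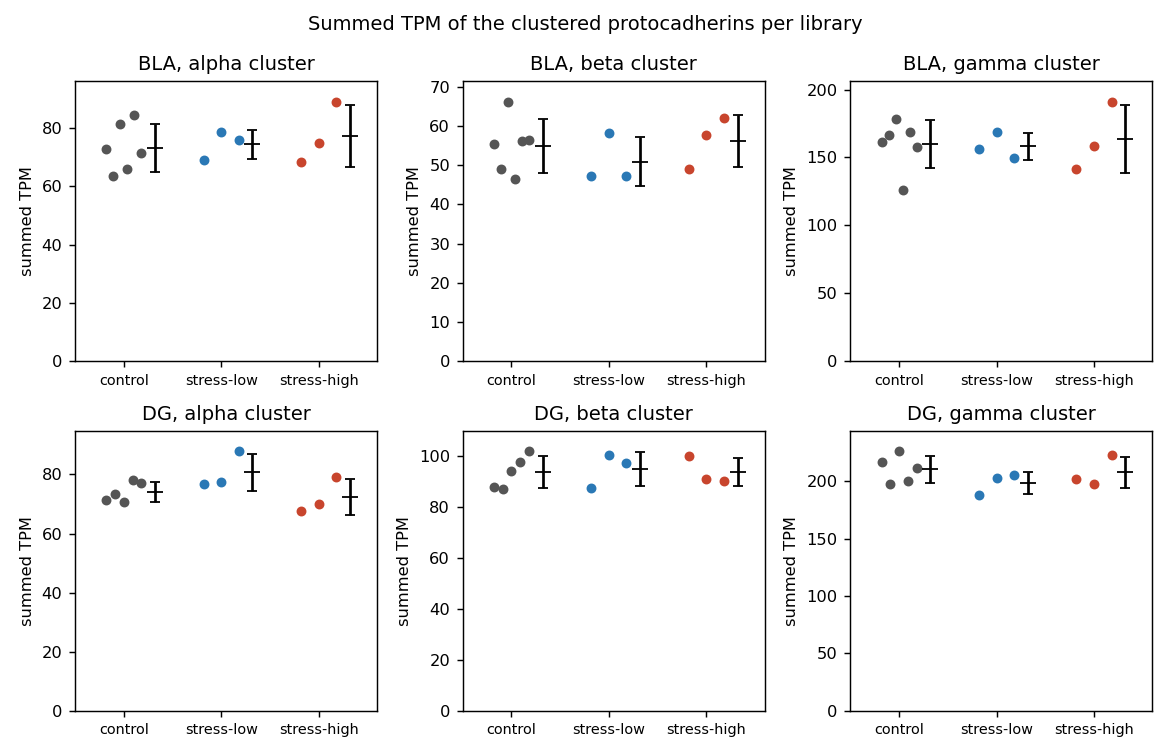
Summed TPM of the alpha (10 genes), beta (18) and gamma (13) protocadherins in each library, with 1 point per library and the group mean and SD beside the points. All 3 groups overlap in each of the 6 panels, and the beta and gamma sums are higher in the DG row than in the BLA row.

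Genes that work with cadherins were described from lists of cytoplasmic catenins and junction adaptors, other members of the cadherin superfamily, signaling partners of protocadherins, regulators of the clustered promoters and cadherin proteases, with 71 genes tested in the BLA and 70 in the DG. None passed adjustment in any comparison by edgeR. Unadjusted, 0 had p under 0.05 between the stress groups in either region. Against BLA controls this held for 0 in stress-low and 2 (2.82%) in stress-high animals, where the shares of all genes were 2.75% and 2.57%. Against DG controls it held for 3 (4.29%) and 2 (2.86%), where the shares of all genes were 6.90% and 2.19%. The median log2 differences over these genes lay between -0.01 and 0.02. All 16 tested regulators of the clustered promoters, among them Ctcf and the cohesin subunits, stayed above 0.05 in each comparison.

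In the BLA, Celsr1, an atypical cadherin of planar polarity, was at 0.61 to 0.91 TPM in controls and at 0.88, 1.02 and 1.2 in stress-high libraries (log2 difference 0.42 ± 0.19). In the DG the receptor tyrosine kinase RET, whose extracellular part holds cadherin-like domains, stood out in both comparisons with controls. It was at 2.19, 2.34, 2.53, 2.71 and 2.38 TPM in controls, at 1.61, 2.37 and 1.25 in stress-low and at 1.29, 1.61 and 1.41 in stress-high libraries. The stress-high libraries were all below the controls, and the log2 difference was -0.74 ± 0.18 (unadjusted p 0.00106, adjusted p 0.99999 by edgeR). Stress-low over control was -0.45 ± 0.18. The membrane protease Mmp14 was at 3.66 to 5.99 TPM in DG controls and at 2.97, 3.23 and 3.62 in stress-high libraries (log2 difference -0.56 ± 0.19). Nckap1 and Abi1, subunits of the WAVE complex that binds protocadherin tails, were fitted higher in stress-low than in control DG libraries by 0.18 ± 0.08 and 0.22 ± 0.09. The smallest unadjusted p of their list was 0.0343 and the smallest adjusted p 0.718 by edgeR. Both genes overlapped with controls, and 1 stress-low library exceeded every control. Nckap1 was at 340.5, 384 and 340.1 TPM against controls up to 356, and Abi1 at 82.8, 108 and 83.8 against controls up to 85.3.

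Members known from non-neuronal cells were set against marker lists across libraries, 8 relations in all. Cdh5 (VE-cadherin of endothelium) went with the mean log2(TPM + 1) of 8 endothelial markers in the BLA (Pearson r 0.75, permutation p 0.00418, adjusted over the 8 relations 0.0313; Spearman rho 0.80, permutation p 0.00290, adjusted 0.0232; n = 12). In the DG r was 0.82 (permutation p 0.00782, adjusted 0.0313) and rho 0.67 (permutation p 0.0282, adjusted 0.113; n = 11). Without the 2 libraries farthest from the median of the list r was 0.43 and 0.30, and within the 6 BLA controls it was 0.25 (0.90 for Pcdh12 there). Leaving out the farthest libraries narrows the range of the list, which can lower r by itself. The fall therefore does not decide whether the relation rests on those libraries. For the other relations r ran from 0.51 to 0.57 in the BLA and from 0.12 to 0.58 in the DG, with adjusted permutation p of 0.112 to 0.729: Pcdh12 with endothelial markers, Pcdh15 with oligodendrocyte precursor markers, and Cdh11 with leptomeningeal markers. Without the 2 farthest libraries Pcdh15 fell to 0.11 in the BLA and 0.13 in the DG. Cdh1, also planned against leptomeningeal markers, was no member and was not run.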

How the data were processed

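Left BLA and left dorsal DG punches of 13 and 12 animals gave poly-A libraries. STAR 2.6.0a (alignment to Rn5, Ensembl build 75) and RSEM 1.3.1 (quantification) were the authors' tools. The deposited expected count is an estimate of a gene's reads and need not be whole, and the deposited TPM is scaled per library. The deposited FPKM was not analysed. Groups came from the sample labels. After rounding, these counts were analysed per region in edgeR 4.0.16 with TMM scaling, the filterByExpr rule (smallest count 10) and a quasi-likelihood model holding the 3 groups. Benjamini-Hochberg adjustment ran over all 15230 BLA and 14080 DG genes. All 73 members passed the filter in each region. The median standard error of a log2 difference between stress groups was 0.19 (BLA) and 0.18 (DG) over members. Exact permutation tests, and relations (100000 permutations), used TPM. The members and lists were chosen with earlier results of these data known. The study's own test, EBSeq, was not used here. Genes named were the 5 highest members per class (all of a class with fewer than 5), those with an unadjusted p under 0.05, Pcdh17, the 3 most variable per region, those nearest the threshold, the 3 of largest rank change between regions and the genes set against marker lists. Partner-list genes with an unadjusted p under 0.05 were named too, except 1 that is not reported here. The tests were checked on simulated counts. Alternatives were DESeq2 1.42.0, limma 3.58.1 on log2(TPM + 1) and log2(TPM + 0.1), other size factors and a run with no filter. Others were fits of the compared groups alone, every mapped library, a replicate block, an animal number above 20 as a covariate, and leaving out single libraries. Whether replicate numbers pair the samples was checked on the deviations from group means.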

Additional observations from a re-analysis of the deposited data

Results flagged for a closer look

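Of 146 groups of control libraries examined (73 members in 2 regions), 5 held a TPM value far from the others by Dixon's 95% limit, where chance flags about 1 in 20. In BLA controls Pcdhga12 was lowest in animal 28 (61.9 TPM, the next 78.2), Pcdhga3 highest in animal 17 (6.96, the next 4.5) and PCDHA6 lowest in animal 17 (1.91, the next 3.5). In DG controls animal 32 was highest for Cdh7 (3.56 TPM, the next 2) and for PCDHB7 (6.1, the next 4.16). Outside the libraries compared, the left-out BLA control of animal 2 held Cdh1 at 1.7 TPM (at most 0.44 in the other controls) and Cdh17 at 1.31 TPM (at most 0.15), genes that are no members.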

How the results depend on the processing

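The count of members with an adjusted p under 0.05 was 0 in the 6 comparisons under each alternative run. The region difference was refitted only with every mapped library, where the count was 0 too. In the 6 comparisons the smallest adjusted p of a named member was 0.293 (Cdh20, DG control against stress-low). Members with an unadjusted p under 0.05 ranged, leaving out 1 library at a time, from 2 to 6 (BLA stress-low against stress-high; 2 without animal 19 or 22), 1 to 7 (BLA control against stress-low; 1 without animal 30, 4 without 22 or 34, 7 without 28), 0 to 3 (BLA control against stress-high; 1 without animal 20 or 32, 3 without 27), 3 to 9 (DG stress-low against stress-high; 3 without animal 19), 3 to 8 (DG control against stress-low; 6 without animal 14, 7 without 32, 8 without 34) and 1 to 4 (DG control against stress-high; 1 without animal 14). With every mapped library these counts became 4 (BLA control against stress-low), 1 (BLA control against stress-high), 2 (DG stress-low against stress-high), 1 (DG control against stress-low) and 1 (DG control against stress-high). With an animal number above 20 as a covariate they were 5 for BLA control against stress-high and 7 for DG control against stress-low. Among stress-exposed animals this covariate matched the 2 groups exactly, so only the controls could estimate it. None of the 20 differences of named members that were followed through the alternatives (the members with an unadjusted p under 0.05, and Pcdh17 in the BLA) reversed. Same-numbered stress-low and stress-high samples showed no positive correlation of deviations above 0.0393 (lowest -0.185). Controls and differently numbered samples were not compared and the pairs were few, so this cannot exclude that the replicate numbers pair the samples. With the replicate block 0 members passed adjustment, and 5, 3, 1 (BLA) and 7, 2, 5 (DG) had an unadjusted p under 0.05, in the order above. Shares of all genes are given for the main edgeR fit only. The unadjusted counts from DESeq2, limma and the other runs therefore do not show whether members moved more than other genes. The log2 difference of Pcdh17 between BLA stress groups ran from -0.31 to -0.10, past an unadjusted 0.05 in 8 of 17 alternatives. The median standard error of a log2 difference between BLA stress groups was 0.21 for clustered members, at a median of 103 reads, 0.12 for non-clustered protocadherins and 0.13 over all genes; the part of depth in this was not tested.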
